A study of Caenorhabditis elegans with 161 samples.

Results

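Pools of 10 whole Caenorhabditis elegans embryos were compared between 2 adjacent time points of a developmental course, C and B, in line 522. The comparison took 6 of the 161 samples of the series: the 3 repeat libraries of line 522 whose titles give time point 3, called C here, and the 3 whose titles give time point 2, called B. Per the labels, 522 is the strain of all 6 pools and the series profiles mutation-accumulation strains, which are propagated through bottlenecks so that new mutations persist. Every pool therefore came from a single line, and the labels give no treatment other than the time of incubation after collection at the 4-cell stage. Letters B and C stand for 60 and 180 min after the 4-cell stage in the strain libraries of the same series. Those strain libraries include the reference strain N2 and line 522 itself. The time field of the repeats gives 830, 0 and 60 min for the C libraries and 270, 440 and 650 min for the B libraries, which goes against their titles, so the letters were used and no time is attached to the repeats. The deposit names the repeats biological, but nothing in the labels says that the 3 pools of a time point came from separate cultures. The p-values therefore measure the spread between these pools, which may still be technical. The values are counts of the 3′ ends of polyadenylated RNA by CEL-Seq, a method that barcodes and linearly amplifies RNA from small samples.

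Over this stretch of development the worm embryo passes from control by RNA and proteins laid down in the egg to control by its own genome, and gastrulation brings the endoderm precursors and then other founder cells into the interior. Ingression is driven by contraction of an actomyosin network at the apical surface of a cell, coupled to its neighbours by cadherin and catenins. Fates are set meanwhile by inherited maternal factors, by Notch and Wnt signals between blastomeres, by short-lived transcription factors of the early zygotic genome, and then by the selector genes that maintain a tissue.

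Total gene counts were 123967, 102820 and 83472 in C, against 456147, 58543 and 317294 in B. A single count was worth about 9.87 to 15 CPM in a C library and 2.46 to 20.6 CPM in a B library, on the scale used below (CPM, counts scaled to the counts on the genes tested after TMM scaling). Libraries of 1 time point correlated at r = 0.904 to 0.935 within C and 0.905 to 0.970 within B (log2 CPM of 2891 genes, across genes, which are not independent replicates). Between the time points r was 0.238 to 0.305. Replicate 3 of C stood highest of its group for the 6 yolk genes (summed 5922 CPM, against 2861 and 3200 in the other C libraries) and the 7 oocyte and eggshell genes (691 CPM, against 217 and 213 CPM). In the B libraries these sums were 4240 to 5150 CPM for yolk and 968 to 1110 CPM for oocyte and eggshell. Of 28 sperm genes none had a count in C and 16 had at least 1 in B, with sums of 20.6 to 34.5 CPM. The 15 genes of later embryonic tissues summed to 483 to 1157 CPM in C and 453 to 760 CPM in B, with 13 and 14 of them detected, and the synaptic gene snt-1 had no count in any of the 6 libraries. The part of such material in the results was not tested.

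Of 2891 genes that passed the filter on low counts, 670 were higher in C (23.2%) and 696 lower (24.1%) at an adjusted p under 0.05 and at least a 2-fold change, or 47.3% in either direction. The C libraries all lay above the B libraries for 31.5% of these genes and all below for 34.1%, which leaves 65.6% with no overlap between the groups. These p-values come from edgeR's quasi-likelihood test with Benjamini-Hochberg adjustment over all 2891 genes, and log2 fold changes are C over B. The 13 lists of gastrulation and fate regulators held 247 genes, of which 130 were tested: 58 were higher in C, 31 were lower and 41 were not called. For 63 regulators the C libraries all lay above the B libraries, and for 41 all below. Log2 fold changes are given ± SE below. The median log2 fold change was 0.58 over the 130 regulators and -0.10 over all genes tested. The filter asked for at least 88.2 CPM of all gene counts, without TMM scaling, in 3 libraries. Of the regulators, 41 passed only through the C libraries and 21 only through the B libraries. Such genes had to differ, and 40 of the 41 were called higher and 20 of the 21 lower. Among the other 68 regulators 18 were higher, 11 lower and 39 not called. The list counts and medians below include genes that passed through C alone or B alone, in each list with a tested member. They stand beside the 23.2% higher and 24.1% lower over all genes tested. Among all genes tested, 322 of the 332 that passed only through C were called higher, 386 of the 409 that passed only through B were called lower, and the other 2150 gave 348 higher and 310 lower. With scaling and spread set over all 21 repeat libraries the calls over all genes were 34% higher, against 49% in the 6 libraries alone, and the median of the same genes was -0.50. In pools of whole embryos, fewer cells of a type and less RNA per cell cannot be told apart.

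**Figure D1:**
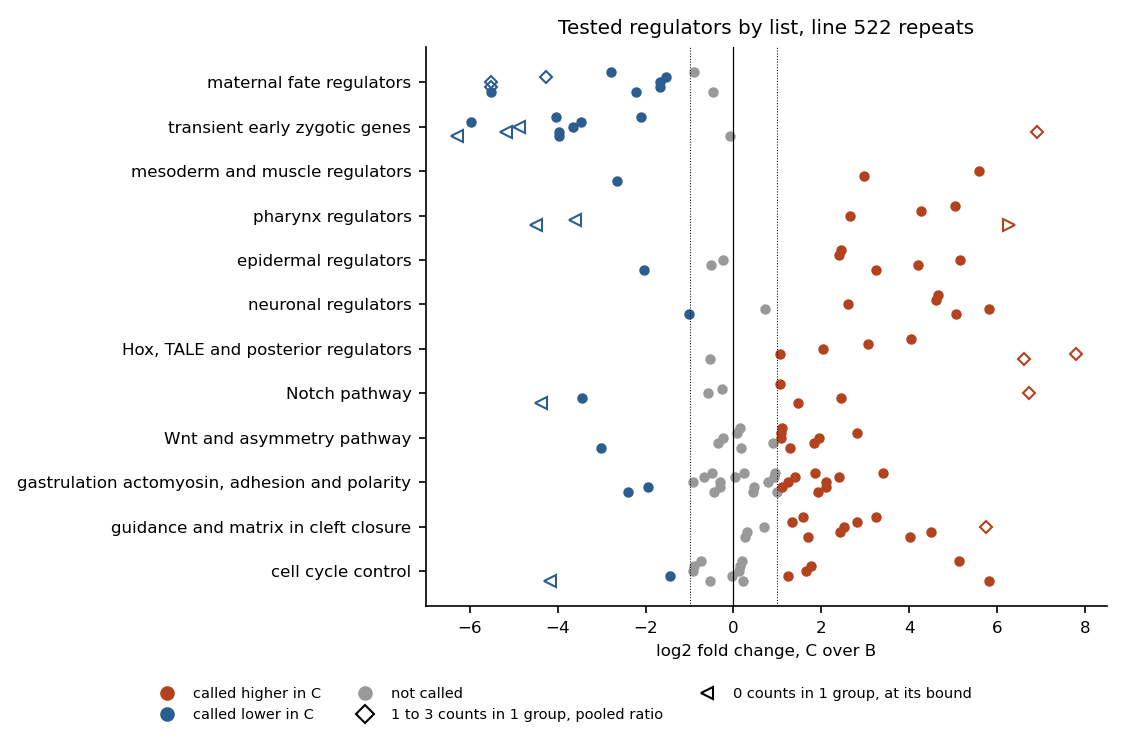
Log2 fold change (x axis, C over B) of each tested regulator in the 12 lists with a tested member (rows). Filled points are fitted values, open triangles mark genes with 0 counts in 1 group at their bound, and open diamonds give the pooled count ratio of genes with 1 to 3 counts in 1 group. Dotted lines mark a 2-fold change. Maternal and transient early genes lie mostly on the left, and the tested guidance and matrix genes lie mostly to the right.

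Of 11 tested maternal fate regulators, 9 were lower in C and 2 were not called. The list holds RNA-binding proteins and transcription factors placed in the oocyte that set the founder cells apart. It has 13 members, and the median over those tested was -2.21. oma-1, a zinc finger RNA-binding protein of oocyte maturation that is degraded after the first division, had 9.87, 35.6 and 30.1 CPM in C, against 1031, 1627 and 936 CPM in B (log2 fold change -5.51 ± 0.38, edgeR adjusted p = 1.14e-14). No C library held more than 35.6 CPM and no B library less than 936. pos-1, a zinc finger translational regulator of posterior blastomeres, had 168, 154 and 406 CPM in C, against 1107, 1195 and 958 CPM in B (log2 fold change -2.21 ± 0.26, edgeR adjusted p = 2.76e-09). Replicate 3 of C was the highest of its group for pos-1, as it was for the summed oocyte genes. mex-5, which segregates germ plasm components in the zygote, had 98.7, 35.6 and 75.2 CPM in C, against 475, 577 and 502 CPM in B (log2 fold change -2.80 ± 0.29, edgeR adjusted p = 2.2e-10). Its partner mex-6 had 3 counts in the C libraries and 169 in the B libraries, pooled counts 19.3-fold lower in C, 95% counting interval 6.5 to 94.6. pie-1, the repressor of transcription in the germline blastomeres, came to 1 count in C and 134 in B (45.9-fold lower in C, 95% counting interval 8.11 to 1828), and mex-1 to 2 and 267 (45.8-fold lower in C, 95% counting interval 12.5 to 379.9). Among the C libraries, reads of these 3 genes came from replicate 2 alone.

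The other members had log2 fold changes nearer to 0. nos-2, a Nanos relative needed in the primordial germ cells, had 88.8, 119 and 286 CPM in C, against 512, 350.2 and 402 CPM in B (log2 fold change -1.55 ± 0.28, edgeR adjusted p = 9.38e-06), and oma-2 had 49.3, 59.3 and 135 CPM in C, against 258, 144 and 259.9 CPM in B (log2 fold change -1.69 ± 0.35, edgeR adjusted p = 9.06e-05). Replicate 3 of C was highest for both, yet still below each B library. spn-4, an RNA-binding protein of early cell fate, was lower by a log2 fold change of -1.66 ± 0.27. mex-3, a KH-domain repressor of pal-1 translation, had 266, 296 and 271 CPM in C, against 588, 556 and 420.1 CPM in B, and missed the 2-fold limit at -0.89 ± 0.22 (edgeR adjusted p = 0.000568). The libraries of mex-3 did not overlap, and mex-3 was called without the filter (-1.07), with all 21 libraries in the fit (-1.28) and without replicate 3 of B (-1.13). pal-1, the Caudal homolog that specifies posterior descendants, had 168, 130.4 and 75.2 CPM in C, against 192, 124 and 178 CPM in B (log2 fold change -0.46 ± 0.31, edgeR adjusted p = 0.194), and its libraries overlapped. skn-1 and zif-1 failed the filter, with 28 and 11 counts in C and 49 and 61 in B. After scaling, the B libraries held 2.92 times the depth of the C libraries, so raw counts do not compare the groups directly. Scaled for it, the pooled ratio was 1.67-fold higher in C for skn-1 (95% interval 1.01 to 2.70) and 1.90-fold lower for zif-1 (0.992 to 4.01), and neither was called without the filter.

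Of 12 tested transient early zygotic genes, 10 were lower in C and 1 was higher, and several were at 0 in C. These genes are among the first to be transcribed from the embryonic genome. The list has 18 members, and the median over those tested was -3.96. pes-10 had 0, 0 and 0 CPM in C, against 773, 1524 and 1072 CPM in B, at least 78.7-fold lower in C against a floor of 3 counts over the group. fkh-3 and fkh-4, near-identical forkhead genes whose separate values are uncertain, also had 0 CPM in each C library. fkh-4 had 386, 556 and 466 CPM in the B libraries (at least 36-fold lower in C), and fkh-3 had 330, 247 and 402 CPM (at least 29.6-fold lower). No C library held a read of any of these 3 genes.

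vet-1, named as a very early transcript, had 0, 35.6 and 90.2 CPM in C, against 1706, 3997 and 1623 CPM in B (log2 fold change -5.98 ± 0.48, edgeR adjusted p = 3.9e-13). Replicate 2 of B, the shallowest library, held the highest level of the 3 B libraries. vet-2 and vet-6 were lower by -3.96 ± 0.33 and -3.97 ± 0.34 on the log2 scale, and the near-identical pair pes-2.1 and pes-2.2 by -3.47 ± 0.30 and -3.66 ± 0.31. Of the genes named for zygotic expression dependent on SKN-1, sdz-9 had 39.5, 23.7 and 30.1 CPM in C, against 529, 515 and 545 CPM in B (log2 fold change -4.04 ± 0.33, edgeR adjusted p = 6.61e-13) and sdz-30 was lower by -2.1 ± 0.26. sdz-28 had 109, 130.4 and 271 CPM in C, against 155, 144 and 196 CPM in B, overlapped between the time points and was not called (log2 fold change -0.09 ± 0.31, edgeR adjusted p = 0.815). Among those tested the exception in direction was the forkhead gene fkh-2, with 118, 130.4 and 271 CPM in C, against 2.46, 0 and 0 CPM in B. It had 41 counts in C and 1 in B, pooled counts 119.6-fold higher in C, 95% counting interval 20.3 to 4837, so forkhead genes of the same list lay on opposite sides. Of the 6 members under the filter, pes-1 had 18 counts in C and 9 in B and was higher in the fit without the filter. In that fit sdz-23 and sdz-38 were lower and the others were not called.

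No gene of the endoderm GATA cascade reached the filter. In this cascade the MED factors act above END-1 and END-3, which act above ELT-7 and ELT-2 in the intestinal lineage. end-1 had 1, 1 and 1 counts in the C libraries and 28, 5 and 14 in the B libraries, pooled counts 5.37-fold lower in C, 95% counting interval 1.73 to 27. end-3 had 0 counts in C and 16, 0 and 12 in B. elt-7 had 7, 12 and 9 counts in C and 12, 0 and 7 in B, and elt-2 had 3, 3 and 3 in C and 1, 3 and 0 in B. In a fit with no filter, where 9.52% of 12508 genes were called higher and 12.6% lower, end-1 and end-3 were lower and elt-7 and elt-2 higher in C. In that fit the END genes were thus lower and the ELT genes below them higher, at depths of a few reads a library. For elt-2 the libraries of the 2 groups overlapped. A count was worth 20.6 CPM in replicate 2 of B and 9.87 to 15 CPM in C. The 3 elt-2 counts of that B library therefore lay above those of each C library. med-1, med-2 and elt-4 had no count in the 6 libraries.

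Of 12 mesoderm and muscle regulators 3 were tested, 2 were higher and 1 was lower. Each of the 3 passed the filter only through the C or only through the B libraries, so these genes had to differ. unc-120, an SRF-type factor of muscle fate, had 355, 273 and 256 CPM in C, against 4.92, 0 and 7.12 CPM in B (log2 fold change 5.60 ± 0.44, edgeR adjusted p = 2.2e-13). hnd-1, the HAND factor of the early muscle lineages, had 316, 261 and 135 CPM in C, against 41.8, 41.2 and 14.2 CPM in B (log2 fold change 2.96 ± 0.37, edgeR adjusted p = 1.24e-08). ceh-51, a homeodomain gene of the MS blastomere that acts with tbx-35, went the other way with 9.87, 23.7 and 30.1 CPM in C, against 106, 165 and 149.5 CPM in B (log2 fold change -2.65 ± 0.50, edgeR adjusted p = 2.28e-05). The libraries of each of the 3 genes were fully separated, although ceh-51 dropped below the filter when replicate 3 of B was left out. hlh-1, the MyoD homolog, failed the filter with 10, 11 and 9 counts in C and 7, 1 and 12 in B, and tbx-35 had 0 counts in C and 6 in B. Without the filter hlh-1, the homeobox gene mls-2 and the forkhead gene let-381 were higher and the Sox gene sem-2, at 0 counts in C and 19 in B, was lower.

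Among 13 pharynx regulators 6 were tested, of which 4 were higher and 2 lower (median 3.47). Each of the 6 passed the filter only through the C or only through the B libraries, so these genes had to differ. pha-4, the FoxA selector gene of the pharynx, had 1243, 818 and 1157 CPM in C, against 24.6, 82.4 and 32 CPM in B (log2 fold change 5.05 ± 0.28, edgeR adjusted p = 4.92e-17). eya-1, the Eyes absent homolog, had 612, 639.9 and 631 CPM in C, against 19.7, 61.8 and 42.7 CPM in B (log2 fold change 4.27 ± 0.29, edgeR adjusted p = 6.08e-15). ceh-27, an NK-type homeobox gene, had 345, 356 and 225 CPM in C, against 0, 0 and 0 CPM in B, at least 77.8-fold higher in C. All 3 genes were high in each C library and at or below 82.4 CPM in each B library. tbx-2, a T-box gene of pharyngeal muscle precursors, was higher by 2.66 ± 0.39. The opposite held for tbx-37 and tbx-38, redundant T-box genes that act in the descendants of the ABa blastomere for anterior pharynx. tbx-38 had 0, 0 and 0 CPM in C, against 293, 185 and 253 CPM in B (at least 22.7-fold lower in C), and tbx-37 had 0, 0 and 0 CPM in C, against 140.3, 185 and 146 CPM in B (at least 12.2-fold lower). The pair is near-identical, so their separate values are uncertain, but neither had a read in C. Without the filter the sine oculis type homeobox gene ceh-34 was higher too, with 11, 7 and 4 counts in C and 0 in each B library.

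**Figure D2:**
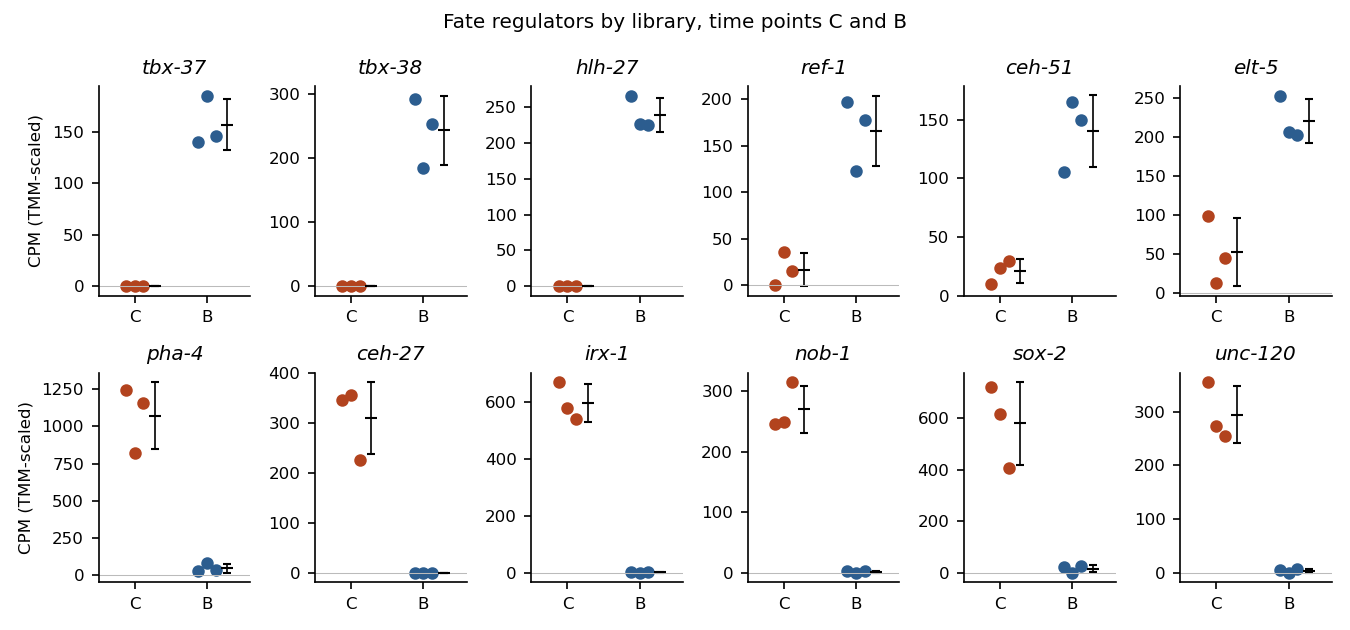
CPM (TMM-scaled, y axis from 0) of 12 fate regulators in each C and B library (points), with the mean and SD of the 3 libraries (bar). The upper row shows genes lower in C, of which tbx-37, tbx-38 and hlh-27 were at 0 in each C library, and the lower row shows genes higher in C, of which ceh-27 was at 0 in each B library.

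Of 15 epidermal regulators 8 were tested, and 5 were higher and 1 lower in C. Each gene called passed the filter only through the C or only through the B libraries, so these genes had to differ. elt-1, the GATA factor that specifies epidermis, had 257, 415 and 271 CPM in C, against 14.8, 20.6 and 17.8 CPM in B (log2 fold change 4.2 ± 0.37, edgeR adjusted p = 4.45e-12). nhr-25, a nuclear receptor of the Ftz-F1 type, had 257, 261 and 120.2 CPM in C, against 9.84, 0 and 0 CPM in B (log2 fold change 5.17 ± 0.50, edgeR adjusted p = 3.72e-11), and lin-26, a zinc finger factor of epithelial fate, was higher by 2.41 ± 0.26. For lin-26 the B libraries already held 61.8 to 91.1 CPM, against 361 to 521 CPM in C. ceh-43, the Distal-less homolog, was higher by 3.26 ± 0.34 and tbx-8 by 2.46 ± 0.38. elt-5, a GATA factor of seam cells listed as egl-18 in the annotation, was lower instead, with 98.7, 11.9 and 45.1 CPM in C, against 253, 206 and 203 CPM in B (log2 fold change -2.03 ± 0.39, edgeR adjusted p = 2.65e-05). tbx-9, which is partly redundant with tbx-8, and die-1, a zinc finger gene needed for dorsal intercalation, were not called at -0.23 ± 0.30 and -0.50 ± 0.24. The 3 C libraries of die-1 lay below those of B, while those of tbx-9 overlapped.

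Among 24 neuronal regulators 7 were tested, of which 5 were higher and 1 lower (median 4.62). hlh-14, sox-2, ceh-37 and ceh-32 passed the filter only through the C libraries, so these genes had to differ. hlh-14, an Achaete-scute type proneural gene, had 661, 616 and 391 CPM in C, against 22.1, 41.2 and 3.56 CPM in B (log2 fold change 5.06 ± 0.36, edgeR adjusted p = 2.61e-14). sox-2 had 720.2, 616 and 406 CPM in C, against 24.6, 0 and 24.9 CPM in B (log2 fold change 4.65 ± 0.32, edgeR adjusted p = 1.18e-14), and ceh-37, of the Otx class, had 335, 356 and 346 CPM in C, against 9.84, 0 and 0 CPM in B (log2 fold change 5.81 ± 0.45, edgeR adjusted p = 1.62e-13). No C library of these genes held less than 335 CPM and no B library more than 41.2. ceh-32, of the sine oculis class, was higher by 4.62 ± 0.40 and cnd-1, the NeuroD homolog, by 2.60 ± 0.35. ztf-11, a zinc finger gene of the Myt family, was lower with 118, 237 and 75.2 CPM in C, against 325, 329.6 and 256 CPM in B (log2 fold change -1.02 ± 0.29, edgeR adjusted p = 0.00261), a call that ended without replicate 1 of C (-0.79), replicate 3 of C (-0.77) or replicate 1 of B (-0.99). hlh-2, the E protein that partners the proneural factors, had 335, 581 and 496 CPM in C, against 273, 227 and 303 CPM in B and was not called at 0.73 ± 0.21 (edgeR adjusted p = 0.00342), although its libraries did not overlap and it was called at 1.01 without replicate 1 of C. Among proneural genes under the filter, hlh-3 had 5 counts in C and 95 in B and ngn-1 had 5 and 57, whereas lin-32 had 23 counts in C and 0 in B. Without the filter the first 2 were lower in C and lin-32 higher.

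Of 14 Hox, TALE and posterior regulators 7 were tested, and 6 were higher, with 0 lower (median 3.06). irx-1, nob-1 and ceh-20 passed the filter only through the C libraries, so these genes had to differ. irx-1, the Iroquois homeobox gene, had 671, 581 and 541 CPM in C, against 2.46, 0 and 3.56 CPM in B, which is 153 counts in C against 2 in B (223-fold higher in C, 95% counting interval 60.7 to 1859). nob-1, a posterior Hox gene, had 247, 249 and 316 CPM in C, against 2.46, 0 and 3.56 CPM in B, which is 67 counts against 2 (97.7-fold higher in C, 95% counting interval 26 to 823). The reads of both genes were almost entirely from the C libraries. The related posterior Hox gene php-3 failed the filter, with 25, 7 and 24 counts in C and 1, 0 and 0 in B. ceh-13, the labial-type Hox gene, had 306, 438 and 361 CPM in C, against 64, 144 and 107 CPM in B (log2 fold change 2.04 ± 0.29, edgeR adjusted p = 1.59e-07), so it was detected in each B library, unlike nob-1. Among the TALE cofactors of Hox proteins, ceh-20, a Pbx homolog, had 345, 356 and 496 CPM in C, against 51.7, 61.8 and 35.6 CPM in B (log2 fold change 3.06 ± 0.30, edgeR adjusted p = 5.93e-11), while its relative ceh-40 had 128, 154 and 30.1 CPM in C, against 153, 165 and 171 CPM in B and was not called (log2 fold change -0.54 ± 0.34, edgeR adjusted p = 0.166). unc-62, the Meis homolog, had 622, 593 and 571 CPM in C, against 290.4, 453 and 235 CPM in B (log2 fold change 1.05 ± 0.21, edgeR adjusted p = 4.01e-05), and this call ended without the filter (0.85), with DESeq2 (0.92), with all 21 libraries in the fit (0.63) and without replicate 1 or 3 of B (0.94 and 0.78). tlp-1, a zinc finger gene of tail development, was higher by 4.05 ± 0.32. egl-5 and ceh-60 had no count, and mab-5 had 1 in C and 2 in B.

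For the Notch pathway 8 of 20 genes were tested, 4 were higher and 2 lower (median 0.40, and -0.03 with all 21 libraries in the fit). Receptors and most ligands were sparse. glp-1, the maternal Notch receptor of early blastomere inductions, had 1, 1 and 1 counts in C and 23, 4 and 26 in B (6.06-fold lower in C, 95% counting interval 1.96 to 30.3), and lin-12, the other receptor, had 11, 9 and 3 in C and 19, 1 and 12 in B. apx-1, the ligand of the first induction, had 10 counts in C and 76 in B. Without the filter glp-1 and apx-1 were lower in C and lin-12 was not called. dsl-3, of the same ligand family, had 375, 237 and 225 CPM in C, against 4.92, 0 and 0 CPM in B, pooled counts 106-fold higher in C, 95% counting interval 28.4 to 896. Of the targets, the bHLH genes of the REF-1 family, hlh-27 had 0, 0 and 0 CPM in C, against 266, 227 and 224 CPM in B (at least 20.8-fold lower in C) and ref-1 had 0, 35.6 and 15 CPM in C, against 197, 124 and 178 CPM in B (log2 fold change -3.46 ± 0.53, edgeR adjusted p = 5.92e-07). hlh-25, near-identical to hlh-27, had 0 counts in C and 61 in B, and hlh-26 had 0 and 21. No gene of this target family was higher in C.

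Among the parts that cleave the receptor, sel-12, a presenilin, had 286, 284 and 271 CPM in C, against 59.1, 41.2 and 42.7 CPM in B (log2 fold change 2.44 ± 0.30, edgeR adjusted p = 1.17e-08), and aph-1 had 395, 356 and 406 CPM in C, against 135, 247 and 117 CPM in B (log2 fold change 1.46 ± 0.25, edgeR adjusted p = 4.68e-06). pen-2, another subunit of the same protease, was called at 1.06 ± 0.32 but with overlapping libraries, and its call ended without the filter (0.85), with DESeq2 (0.89), with all 21 libraries in the fit (0.62), and at 0.53 without replicate 2 of C, 0.82 without replicate 1 of B and 0.98 without replicate 3 of B. The protease sup-17 was not called at -0.59 ± 0.20 (edgeR adjusted p = 0.0124), with each C library below each B library. lag-1, the transcription factor of the pathway, was not called either, with 88.8, 94.8 and 195 CPM in C, against 158, 124 and 132 CPM in B. Of the cleavage parts under the filter, hop-1 went the other way from sel-12, with 0 counts in C and 13 in B. aph-2 had 27 and 51 counts, a pooled ratio 1.54-fold higher in C (95% interval 0.931 to 2.51). Without the filter hop-1 was lower in C and aph-2 was not called.

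In the Wnt and asymmetry pathway 14 of 29 genes were tested, 7 were higher and 1 was lower (median 1.00). mom-2, the Wnt that polarises the endomesoderm precursor, had 59.2, 23.7 and 45.1 CPM in C, against 379, 350.2 and 335 CPM in B (log2 fold change -3.01 ± 0.35, edgeR adjusted p = 2.04e-09). The upstream kinase mom-4 had 8 counts in C and 78 in B. Downstream, the divergent beta-catenins were higher: wrm-1 had 1066, 758 and 571 CPM in C, against 244, 288 and 192 CPM in B (log2 fold change 1.84 ± 0.22, edgeR adjusted p = 3.81e-09) and sys-1 had 217, 130.4 and 210.4 CPM in C, against 44.3, 61.8 and 49.8 CPM in B (log2 fold change 1.95 ± 0.33, edgeR adjusted p = 4.19e-06). pop-1, the TCF factor that both act through, had 148, 119 and 135 CPM in C, against 133, 124 and 99.7 CPM in B and was not called at 0.18 ± 0.32. Its libraries overlapped where those of wrm-1 and sys-1 did not. lit-1, the Nemo-like kinase that works with WRM-1, was called at 1.08 ± 0.29 and not without replicate 2 of B (0.99), with DESeq2 (adjusted p = 0.0679), without the filter (0.89) or with all 21 libraries in the fit (0.66).

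Of the Dishevelled genes, dsh-1 had 385, 403 and 346 CPM in C, against 66.4, 41.2 and 39.2 CPM in B (log2 fold change 2.80 ± 0.29, edgeR adjusted p = 2.25e-10), while dsh-2 and mig-5 were not called at -0.23 ± 0.21 and -0.36 ± 0.29. Among receptors, the Ror kinase cam-1 was higher by 1.29 ± 0.30 (0.86 and not called with all 21 libraries in the fit) and the Frizzled gene cfz-2 by 1.09 ± 0.28, and the cfz-2 call ended without the filter (0.89), with all 21 libraries in the fit (0.66), or without replicate 1 of C (0.91) or replicate 2 of B (0.96). The Frizzled gene lin-17 had 26 counts in C and 8 in B and the Wnt gene cwn-2 32 and 1 (93.3-fold higher in C, 95% counting interval 15.6 to 3800.0), both higher without the filter. The APC homolog apr-1 was called at 1.11 ± 0.30 with overlapping libraries, and not with DESeq2 (adjusted p = 0.076), with all 21 libraries in the fit (0.68), or without the filter (0.92), replicate 2 of C (0.92) or replicate 3 of B (0.83). kin-19, a casein kinase, was not called at 0.91 ± 0.22 but was called without replicate 2 of C (1.02) or replicate 2 of B (1.01). mig-14, the Wnt secretion factor, and vang-1, a planar polarity protein, were not called at 0.15 ± 0.30 and 0.07 ± 0.36. Within this pathway the ligand mom-2 was thus the member that was lower among those tested.

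The genes of gastrulation movements themselves were measured in larger numbers: 25 of 36 actomyosin, adhesion and polarity genes were tested, 9 were higher, 2 lower and 14 not called (median 0.78). Of the cadherin complex, hmp-1, the alpha-catenin, had 385, 296 and 391 CPM in C, against 83.7, 61.8 and 85.4 CPM in B (log2 fold change 2.1 ± 0.28, edgeR adjusted p = 3.03e-08), and hmp-2, its beta-catenin, had 148, 154 and 165 CPM in C, against 49.2, 20.6 and 32 CPM in B (log2 fold change 1.91 ± 0.35, edgeR adjusted p = 1.03e-05). hmr-1, the cadherin, had 523, 604 and 661 CPM in C, against 468, 391 and 413 CPM in B and was not called at 0.44 ± 0.19 (edgeR adjusted p = 0.0444), though its libraries did not overlap. The actin-binding junction protein afadin, afd-1, had 809, 913 and 556 CPM in C, against 71.4, 61.8 and 74.8 CPM in B (log2 fold change 3.41 ± 0.24, edgeR adjusted p = 1.26e-14), the largest change among the tested members of this list. sax-7, the L1-type adhesion molecule that is partly redundant with HMR-1 in gastrulation, had 9.87, 35.6 and 30.1 CPM in C, against 145, 144 and 103 CPM in B (log2 fold change -2.40 ± 0.48, edgeR adjusted p = 4.98e-05). The catenins hmp-1 and hmp-2 were thus higher and sax-7 lower in C, and sax-7 dropped below the filter when replicate 1 of B was left out. gad-1, a WD-repeat gene named for a gastrulation defect, was lower with 98.7, 130.4 and 75.2 CPM in C, against 379, 433 and 406 CPM in B (log2 fold change -1.94 ± 0.27, edgeR adjusted p = 1.17e-07).

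The genes of the myosin motor differed in their calls. nmy-2, the myosin II heavy chain of apical constriction, had 276, 296 and 286 CPM in C, against 601, 597 and 459 CPM in B and was not called at -0.93 ± 0.21 (edgeR adjusted p = 0.000292). Each of its C libraries lay below each B library, and nmy-2 was called without the filter (-1.1), with all 21 libraries in the fit (-1.32) and without replicate 3 of B (-1.13). mlc-4, the regulatory light chain, had 375, 427 and 481 CPM in C, against 694, 556 and 708 CPM in B and was not called at -0.68 ± 0.20, though it was called with all 21 libraries in the fit (-1.04). nmy-1, the other non-muscle heavy chain, which is used later in epidermal elongation, had 345, 391 and 210.4 CPM in C, against 130.4, 124 and 110.4 CPM in B (log2 fold change 1.40 ± 0.27, edgeR adjusted p = 3.25e-05). Its C libraries lay above its B libraries, and the nmy-1 call ended with all 21 libraries in the fit (0.97). Of the regulators, the exchange factor ect-2 (0.78 ± 0.32) and the kinase mrck-1 (1.00 ± 0.30) were not called. mrck-1, whose kinase activates apical myosin in the ingressing endoderm cells, stood at the 2-fold limit and was called with RLE scaling (1.02) and without replicate 1 or 2 of C (1.1 and 1.09), and ect-2 was called without replicate 1 of B (1.06).

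Among actin nucleation genes, the Arp2/3 subunit arx-6 had 414, 367 and 586 CPM in C, against 73.8, 82.4 and 96.1 CPM in B (log2 fold change 2.41 ± 0.27, edgeR adjusted p = 8.47e-10) and gex-2 of the WAVE complex had 158, 213 and 180.4 CPM in C, against 49.2, 41.2 and 53.4 CPM in B (log2 fold change 1.85 ± 0.32, edgeR adjusted p = 6.44e-06). The subunit arx-7 was higher by 1.23 ± 0.31, a call that ended with all 21 libraries in the fit (0.81), while arx-2 was not called at 0.05 ± 0.32 and arx-3 at 0.95 ± 0.26 was called only without replicate 1 of C (1.06). Subunits of 1 complex were thus not all called. The WASP gene wsp-1 (-0.49 ± 0.31), the profilin pfn-1 (-0.30 ± 0.24) and the cofilin unc-60 (0.93 ± 0.23) were not called, the last with C above B in each library and a call without replicate 3 of C (1.01). Polarity genes were not called: par-6 at -0.44 ± 0.37, pkc-3 at -0.31 ± 0.29 and pac-1, which reads cell contacts, at 0.47 ± 0.27. src-1, a kinase of division orientation and endoderm specification, was called at 1.11 ± 0.24, and not without the filter (0.94), with all 21 libraries in the fit (0.75), or without replicate 3 of C (0.95), replicate 1 of B (0.99) or replicate 3 of B (0.93). A p that misses the threshold does not show equal levels.

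**Figure D3:**
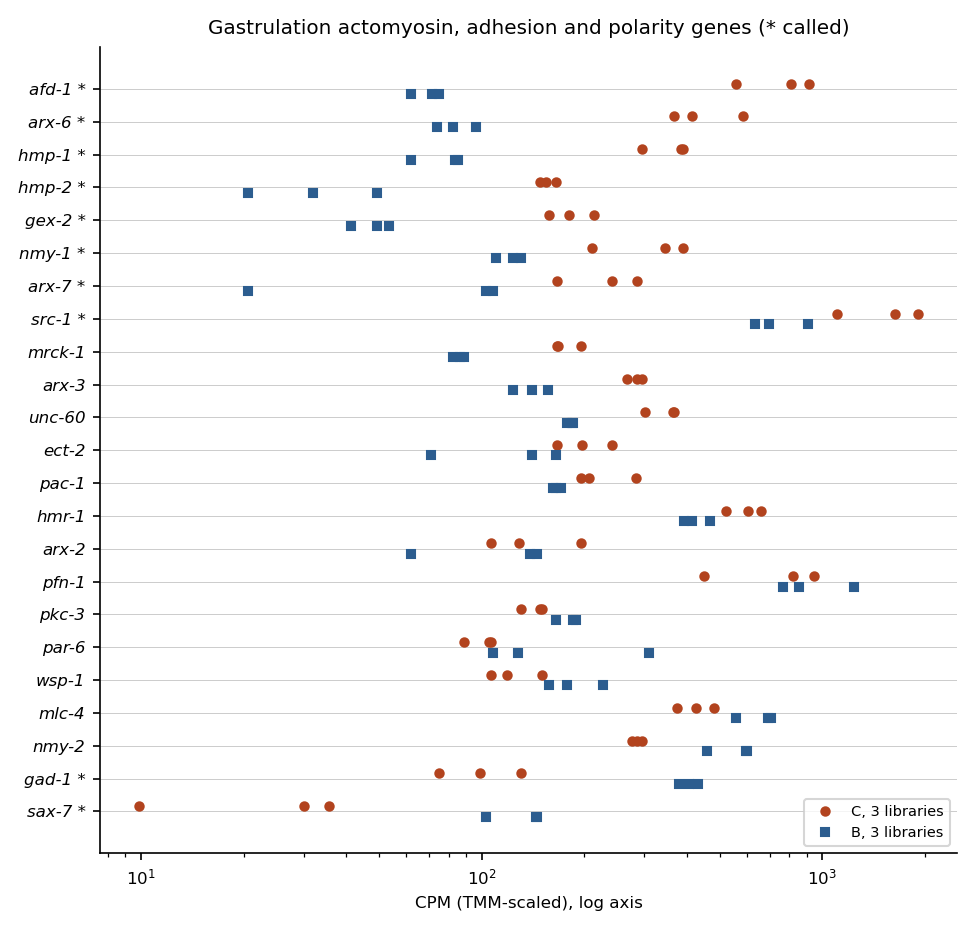
CPM (TMM-scaled, log axis) of the tested gastrulation actomyosin, adhesion and polarity genes reported here in the 3 C libraries (circles, upper of each pair of rows) and the 3 B libraries (squares), ordered by log2 fold change. afd-1, arx-6 and hmp-1 head the plot with C libraries to the right, the middle genes lie close together, and gad-1 and sax-7 at the bottom have their C libraries to the left.

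The next list groups 24 guidance and matrix genes under closure of the ventral cleft after gastrulation, a role not tested here. Of these 13 were tested, 10 were higher in C, 0 lower and 3 not called (median 2.42). epi-1, lam-3, unc-5, kal-1, vab-2 and ina-1 passed the filter only through the C libraries, so these genes had to differ. Among the other 11, the fit without the filter called efn-4, unc-6 and lam-2 higher and none lower, and smp-2 had no count. epi-1, a laminin alpha chain of basement membranes, had 739.9, 924 and 827 CPM in C, against 54.1, 41.2 and 46.3 CPM in B (log2 fold change 4.03 ± 0.24, edgeR adjusted p = 2.33e-16), and lam-3, the other alpha chain, had 207, 178 and 135 CPM in C, against 22.1, 20.6 and 28.5 CPM in B (log2 fold change 2.82 ± 0.36, edgeR adjusted p = 2.05e-08). unc-5, the netrin receptor, had 848, 379 and 752 CPM in C, against 27.1, 41.2 and 28.5 CPM in B (log2 fold change 4.50 ± 0.31, edgeR adjusted p = 1.45e-14). For each of these 3 genes the lowest C library lay well above the highest B library. The anosmin homolog kal-1 had 55 counts in C and 3 in B, pooled counts 53.5-fold higher in C, 95% counting interval 17.4 to 267. Of the ephrin system, the receptor vab-1 was higher by 1.70 ± 0.32 and the ligand vab-2 had 128, 154 and 120.2 CPM in C, against 9.84, 0 and 21.4 CPM in B (log2 fold change 3.24 ± 0.42, edgeR adjusted p = 3.16e-08), while efn-4 failed the filter with 38 counts in C and 13 in B. The LAR-type phosphatase ptp-3 was higher by 2.52 ± 0.29 and the semaphorin mab-20 by 1.58 ± 0.28. Of the integrins, the alpha chain ina-1 had 286, 225 and 316 CPM in C, against 41.8, 61.8 and 60.5 CPM in B (log2 fold change 2.42 ± 0.31, edgeR adjusted p = 2.37e-08), whereas the beta chain pat-3, shared by both alpha chains of the worm, had 335, 474 and 301 CPM in C, against 332, 329.6 and 256 CPM in B and was not called (log2 fold change 0.30 ± 0.22, edgeR adjusted p = 0.225). The syndecan sdn-1 was higher by 1.33 ± 0.24, with the call ending in the fit of all 21 libraries (0.91). unc-40, the other netrin receptor, was not called at 0.25 ± 0.24, nor was the Robo gene sax-3 at 0.69 ± 0.30, which was called without replicate 2 of C (1.03).

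Cell cycle regulators were called in both directions. Of 22, 16 were tested, 5 were higher, 2 lower and 9 not called (median 0.13, and -0.25 with all 21 libraries in the fit). Over all genes tested 23.2% were higher and 24.1% lower, or 47.3% in either direction. cyd-1, cyclin D, had 1371, 1363 and 1217 CPM in C, against 34.5, 61.8 and 35.6 CPM in B (log2 fold change 5.13 ± 0.26, edgeR adjusted p = 3.66e-18), and cki-1, a CDK inhibitor, had 631, 438 and 421 CPM in C, against 4.92, 20.6 and 10.7 CPM in B (log2 fold change 5.82 ± 0.40, edgeR adjusted p = 9.28e-15). The cyclin D gene and an inhibitor of the cycle were thus both high in each C library and at no more than 61.8 CPM in each B library. cya-1, cyclin A, was higher by 1.65 ± 0.20, the phosphatase cdc-14 by 1.77 ± 0.20 and the inhibitor cki-2 by 1.24 ± 0.24, the last with overlapping libraries and no call in the fit of all 21 libraries (0.80). Of the CDC25 phosphatases that drive division, cdc-25.3 had 0, 0 and 0 CPM in C, against 229, 206 and 196 CPM in B (at least 18.1-fold lower in C) and cdc-25.1 had 88.8, 83 and 120.2 CPM in C, against 261, 247 and 267 CPM in B (log2 fold change -1.45 ± 0.31, edgeR adjusted p = 0.000103). wee-1.1, a Wee1-type kinase gene, had 0 counts in C and 44 in B. The mitotic genes cdk-1, plk-1 and air-1 were not called at -0.54 ± 0.23, 0.12 ± 0.20 and 0.22 ± 0.21, nor was cyb-1, cyclin B, at -0.93 ± 0.26. The inhibitory kinase wee-1.3 (-0.03 ± 0.28), the Rb homolog lin-35 (0.15 ± 0.25), and the E2F and DP genes efl-1 (-0.74 ± 0.30) and dpl-1 (-0.90 ± 0.27) were not called, though efl-1 was called with all 21 libraries in the fit (-1.15). dpl-1 was called without the filter (-1.08), with all 21 libraries (-1.29), and without replicate 2 of C (-1.11) or replicate 2 of B (-1.04). cyb-1 was called with DESeq2 (-1.01), without the filter (-1.05), with all 21 libraries (-1.24), and without replicate 2 of C (-1.01), replicate 1 of B (-1.13) or replicate 3 of B (-1.1).

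1 library decided the value for cyb-3, a cyclin of the B type. It had 5929, 5368 and 8372 CPM in C, against 2461, 12134 and 3151 CPM in B, so replicate 2 of B, the shallowest library, lay above the C libraries and the other 2 B libraries below them. With all 6 libraries the log2 fold change was 0.18 ± 0.46 (edgeR adjusted p = 0.737), and without replicate 2 of B it was 1.18 (edgeR adjusted p = 2.21e-07). In the strain pools cyb-3 stood at 4235 ± 1316 CPM at 180 min and 6356 ± 2472 CPM at 60 min (mean ± SD, n = 20 each), lower at 180 min in 18 of 20 strains. The direction of cyb-3 is thus not settled by these libraries.

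Outside the lists, the 8 largest rises and 8 largest falls that met the rule for named genes also held transcription factors. zip-8, a bZIP gene, had 2378, 2038 and 3036 CPM in C, against 2.46, 0 and 0 CPM in B, with 615 counts in C and 1 in B (1794-fold higher in C, 95% counting interval 321 to 70958). zip-7, of the same class, had 104 counts in C and 2 in B (151.7-fold higher in C, 95% counting interval 40.9 to 1269), and the zinc finger genes mnm-2 and sptf-1 had 59 and 50 counts in C and 1 each in B. vab-23, a zinc finger gene of ventral epidermal closure, had 197, 225 and 180.4 CPM in C, against 0, 0 and 0 CPM in B (at least 49.6-fold higher in C). sym-1, a leucine-rich repeat protein of the epidermal surface, was higher by 5.98 ± 0.36, and T02E9.5 and the nucleoside phosphorylase pnp-1 completed the rises. Each of the 8 falls was at 0 in C: sgnh-1 had 0, 0 and 0 CPM in C, against 583, 824 and 676 CPM in B (at least 53.4-fold lower), the T-box gene tbx-33 had 0, 0 and 0 CPM in C, against 357, 474 and 345 CPM in B (at least 30.3-fold lower), and Y43F11A.1, ZK899.6, Y5H2B.3, K08H2.2, Y73C8C.8 and C05D12.4 were at least 30.2- to 52.8-fold lower. The sources used here give no role for those 6.

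The 7 time points of line 522 place these differences in the course. Levels here are CPM of all gene counts, mean ± SD of 3 libraries, and share the C and B libraries with the comparison, so they are given as description. Of the 58 regulators higher in C, 28 had their highest mean at C, 24 at D, 3 at E and 3 at A. Of the 31 lower in C, 20 were highest at B and 11 at A. pes-10 had 0 CPM at A, 967 ± 288 at B and 0 at C, D and E. tbx-38 had 2.16 ± 3.75 CPM at A, 213 ± 54.4 at B and 0 at C, and hlh-27 had 0 at A, 208 ± 25.7 at B and 0 at C. These were pulses confined to B among the 7 time points, apart from means of at most 2.87 CPM at others. oma-1 and pos-1 were highest at A (1655 ± 407 and 3993 ± 1266 CPM), intermediate at B (1032 ± 278 and 942 ± 81.3) and low at C (20.4 ± 11 and 196 ± 111).

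Among genes high at C, hlh-14 had 19 ± 15.5 CPM at B, 453 ± 123 at C, 180 ± 62 at D and 9.96 ± 4.34 at E, and cyd-1 had 37.8 ± 11.6, 1070 ± 86.3, 555 ± 38.6 and 56.1 ± 10.8 at the same points. pha-4 was at 39.5 ± 25.14 CPM at B, 870 ± 179 at C and 954 ± 211 at D, where the spreads of C and D overlap. The D libraries were also fitted against the C libraries in edgeR, where 11.4% of genes were called higher in D. afd-1 had 618 ± 157 CPM at C and 965 ± 77.1 at D and was not called in that fit (log2 fold change 0.60, edgeR adjusted p = 0.0605). lam-3 had 141 ± 31.1 CPM at C and 737 ± 68.3 at D and was higher in D (2.32, edgeR adjusted p = 5.52e-07), and epi-1 had 674 ± 77.9 at C and 395 ± 30.3 at D. Some genes lower in C than in B had higher means again at D. elt-5 had 192 ± 29.5 CPM at B, 42.1 ± 35.9 at C and 153 ± 26.2 at D, and was higher in D than in C (1.72, edgeR adjusted p = 0.0052). ngn-1 had 67.9 ± 4.67, 15.1 ± 14.6 and 194 ± 27.7 CPM, and was also higher in D (3.55, edgeR adjusted p = 9.96e-06). sax-7, mom-2 and ref-1 did not pass the filter of the D against C fit, with means of 113.4 ± 19.7, 20.4 ± 11 and 86.4 ± 39.5 CPM for sax-7, 308 ± 25.7, 34.6 ± 14.5 and 148 ± 80.9 for mom-2 and 145 ± 38, 13.7 ± 14.7 and 46.6 ± 12.4 for ref-1. For these 5 genes the mean at C was the lowest of the 3 time points.

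**Figure D4:**
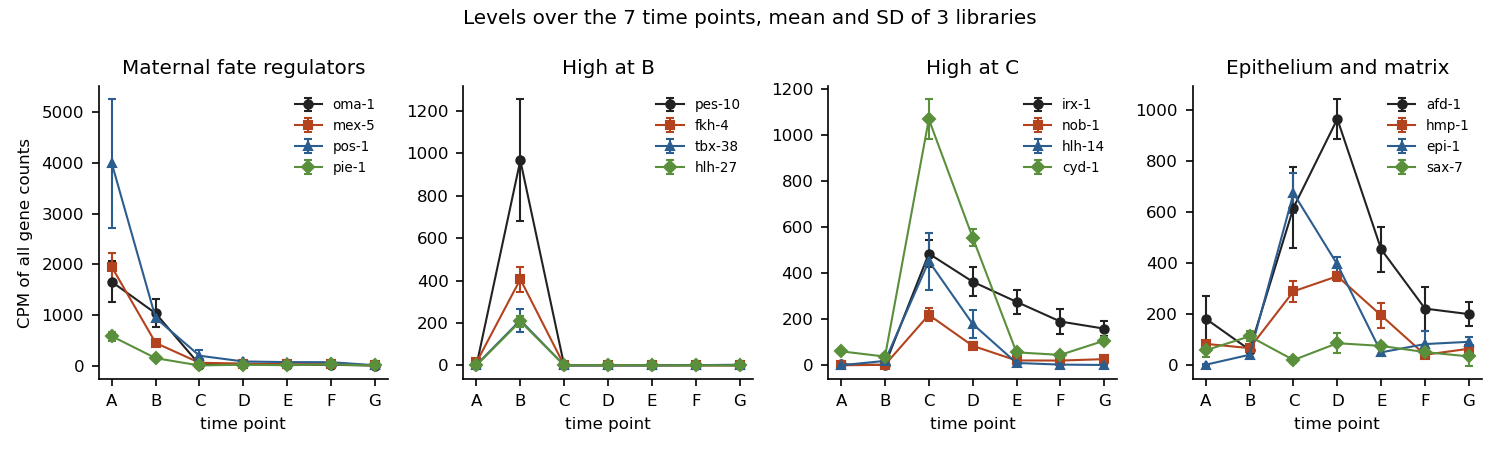
Level over the 7 time points A to G of line 522 (x axis) in CPM of all gene counts (y axis), as mean and SD of 3 libraries, for 16 regulators in 4 panels. Maternal regulators decline after A, the genes of the next panel are high at B alone, irx-1, nob-1, hlh-14 and cyd-1 are highest at C, and sax-7 is lower at C than at B and D.

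The strain pools gave other libraries, 20 at 180 min and 20 at 60 min with 1 pool per strain, and 0 of them were equal to a repeat library. Total gene counts ran from 20356 to 285676 at 180 min and from 11540 to 234456 at 60 min. Each of the 58 regulators higher in C had a higher mean at 180 min, 36 of them in 20 of 20 strains and 57 in 15 or more, the exception being src-1 with 14. Each of the 31 lower in C had a lower mean at 180 min, 21 of them in 20 strains and all 31 in 15 or more. Over all genes tested the same held for 668 of 670 and 694 of 696, which is a like share to that of the regulators. Of the 41 regulators not called, 21 were higher and 20 lower at 180 min. irx-1 had 344 ± 93.8 CPM at 180 min and 9.68 ± 13.8 at 60 min (mean ± SD, n = 20 each), and nob-1 had 224 ± 87.6 and 3.32 ± 9.29. tbx-37 had 0 in each strain at 180 min and 98.7 ± 53 CPM at 60 min, and tbx-38 had 2.03 ± 5.69 and 158 ± 51.4. pha-4 had 384 ± 126 CPM at 180 min, against 870 ± 179 at C in the repeats on the same scale, and 25.9 ± 27.4 at 60 min. nmy-2, which was not called in the repeats, was lower at 180 min in 16 of 20 strains (259 ± 132 and 372 ± 126 CPM), mlc-4 in 18 (579 ± 185 and 877 ± 249 CPM), and hmr-1 was higher in 14 (365 ± 153 and 273 ± 109 CPM).

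**Figure D5:**
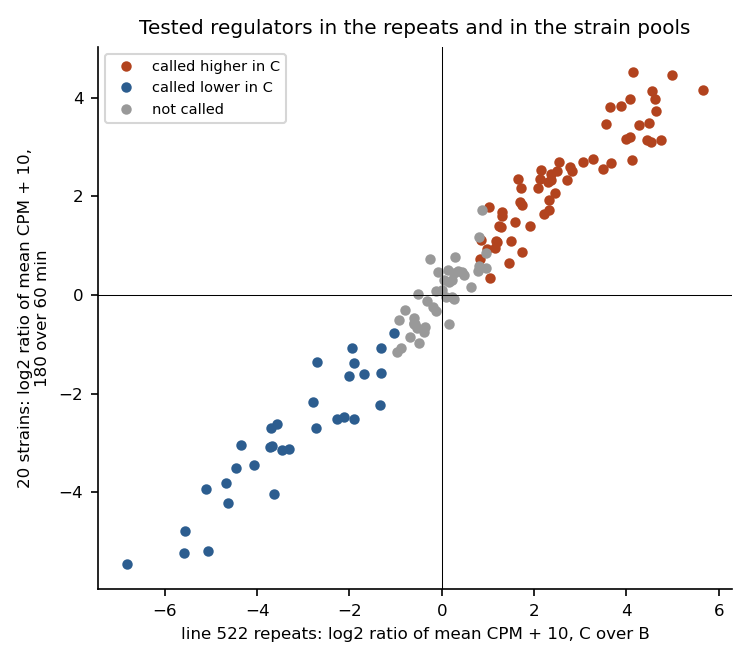
Log2 ratio of mean CPM + 10 for the 130 tested regulators, C over B in the line 522 repeats (x axis) and 180 over 60 min in the 20 strain pools (y axis), with 1 point per gene coloured by its call. The 58 genes called higher lie above 0 on both axes and the 31 called lower lie below 0 on both.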

How the data were processed

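CEL-Seq libraries of 3 C and 3 B pools were used as the counts per gene that the authors deposited, which hold 20687 genes. Per the submitters' processing notes CASAVA 1.8 and Bowtie2 2.1.0 were used. No counting program, build, annotation or strand setting is given in the sources used here, so reads of near-identical genes (pes-2.1 and pes-2.2, fkh-3 and fkh-4, tbx-37 and tbx-38, the hlh-25 group, histones, yolk, sperm, fbxb and skr genes) and of overlapping genes may be split or shared, and their separate values are uncertain. Symbols came from a RefSeq gene table, with 20063 identifiers matched and 624 not.

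The table's 5 summary rows, which name no gene, entered neither library sizes nor tests. Reads not aligned were 41.7 to 70.2% in C and 39.4 to 53.6% in B, and reads aligned in no feature 21.8 to 40.7% in C and 22.4 to 41.5% in B. A further 7 columns of per-sample values were not used. Counts were tested with edgeR 4.0.16 in R 4.3.3 (TMM scaling, filterByExpr with a minimum count of 10, quasi-likelihood test, Benjamini-Hochberg adjustment), with calls made where the adjusted p was under 0.05 and the change at least 2-fold. The SE is the size of the log2 fold change over the square root of F, which is approximate. CPM were computed from the deposited counts. Pooled ratios carry exact Clopper-Pearson 95% intervals (Python 3.11.15, scipy 1.17.1), and intervals and floors of 3 counts over a group cover counting error only.

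The members and lists were chosen with earlier results of these data known. Every list member could be named, with values in each library for up to 6 members of a list with the smallest p and for defining members. Members under the filter were named by raw counts, and their calls come from the fit with no filter. Outside the lists the 8 largest rises and falls were named among called genes with a mean of at least 50 CPM and no overlap. On simulated counts (2647 genes) 38% of 2-fold and 100% of 4-fold changes were called, and 0% of unchanged genes. The own results of some list members are not reported here, though the list counts include them. Alternatives were RLE scaling, no filter, DESeq2 1.42.0, a replicate block, all 21 repeat libraries in the fit, and each library left out. A like edgeR fit of the D against the C libraries was added after seeing the data, and it shares the C libraries with the comparison with B.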

Additional observations from a re-analysis of the deposited data

How the results depend on the processing

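Without the filter on low counts 1191 genes were called higher in C, 1573 lower and 2764 in all, with 49 regulators lower, over 12508 genes tested. With all 21 repeat libraries in the fit 1756 genes were called lower and 2661 in all. Leaving out 1 library at a time gave 710 to 874 genes higher, 735 to 930 lower and 1460 to 1804 in all, and 61 to 68 regulators higher, 30 to 36 lower and 92 to 103 in all. RLE scaling and DESeq2 kept each count within 1.5 times. Of 146 named genes that were fitted, 120 had an unchanged call under each alternative run, 26 changed their call under at least 1, and none reversed, and the cause of the changes was not tested. The replicate numbers do not pair the libraries: same-numbered C and B libraries deviated from their group means with r = -0.00567, -0.0957 and -0.0575, and 0 of 3 C libraries correlated best with its own number. With a replicate block 665 genes were higher and 697 lower, unc-62 (0.98), pen-2 (0.74) and apr-1 (0.96) were not called and mrck-1 (1.03) was. Depth limits the genes with a few reads a library, above all in replicate 2 of B.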

Other observations

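Gene families sharing a name prefix were looked at after their values were seen, and are given as values with no explanation. Of 110 fbxb genes, which encode F-box proteins of substrate recognition in ubiquitin ligases, 27 were tested, 25 were lower in C and 2 were higher (median log2 fold change -3.61, against -0.10 over all genes tested, of which 24.1% were lower and 23.2% higher). Each of the 25 passed the filter on low counts only through the B libraries and each of the 2 only through the C libraries, so these genes had to differ. The 2 that were higher were fbxb-75 (1.43 ± 0.32 SE) and fbxb-88 (1.93 ± 0.40 SE). Of 20 skr genes, the Skp1 relatives that bind F-box proteins, 12 were tested, 8 were lower and 2 were higher (median -2.05). Of these, 2 that were lower passed only through B and 1 that was higher only through C. skr-21 averaged 356 ± 48.2 CPM in C and 4.47 ± 4.98 CPM in B (SD, n = 3 each), and skr-19 averaged 1004 ± 206 CPM in C and 133 ± 10.1 CPM in B.

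Ribosomal protein genes were mostly higher in C. Of 45 tested rpl genes 31 were higher and 1 was lower (median 1.22), and of 30 rps genes 24 were higher and 0 lower (median 1.23), beside 23.2% higher and 24.1% lower over all genes tested. None of these genes passed the filter through 1 group alone. With all 21 repeat libraries in the fit these medians were 0.83 for rpl and 0.85 for rps. The rpl gene that was lower was rpl-11.1, with 179 ± 31.2 CPM in C and 374 ± 47.3 CPM in B. his-24, a linker histone gene, averaged 10748 ± 1566 CPM in C and 1443 ± 677 CPM in B, while 5 of the 8 tested his genes were lower. Of those 5, his-35, his-58, his-67 and his-74 passed the filter only through the B libraries, so these genes had to differ. his-71, which was higher, passed only through the C libraries.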
